A study of Mus musculus with 15 samples.

Results

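GL261 tumors were compared with Mut3 tumors, both grown in the brains of immunocompetent C57BL/6 mice, across all genes counted by RNA-seq. The comparison used 6 of the 15 libraries of the study, 3 GL261 and 3 Mut3, each from the tumor of a different mouse. The other 9 libraries, from CT2A tumors, 005 tumors and naïve brain (3 each), entered the same model and served as references. GL261 is a mouse glioma line that was induced with methylcholanthrene in C57BL/6 mice and carries mutant p53. Mut3 is a glioma line taken from a genetically engineered mouse in which NF1 and p53 were inactivated. Both lines carry a GFP and firefly luciferase reporter, and each is represented by 1 cell line. GL261 was cultured in serum and Mut3 in serum-free medium with EGF and FGF-2 before implantation. Mice received 100000 GL261 cells or 500000 Mut3 cells in the right hemisphere at 6 to 8 weeks of age, and tumors were harvested at end-point after perfusion. Line, culture, cell number and survival therefore differ together and cannot be told apart.

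As background, the MHC molecules on a cell show peptides to T cells: class I to CD8+ cells and class II to CD4+ cells. Interferon-gamma from T and NK cells switches on both sets of genes together with a family of GTPases, while type I interferons act through STAT2 and IRF9 on antiviral genes. Gliomas also hold microglia and blood-derived macrophages, together with the neurons, myelin and astrocytes that the tumor has grown into. NF1 restrains RAS, and OLIG2 and SOX2 mark glial progenitors. In bulk tissue such as this, fewer cells of a type and less RNA per cell cannot be told apart.

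Library totals were 5380395 to 7244155 counts for GL261 and 7525006 to 11308105 for Mut3. Replicates correlated at r = 0.935 to 0.951 within GL261 and 0.946 to 0.951 within Mut3. These and later correlations between replicates used log2(CPM + 1) from library totals without TMM scaling, over genes above a minimum summed count. One GL261 library, replicate 2, stood apart in that 11.3% of its counts came from mitochondrially encoded genes, against 4.33% to 5.96% in the other 5 libraries. Values below are CPM, the reads of a gene relative to the TMM-scaled total of its library, listed in the order of replicates 1, 2 and 3. A gene was called differentially expressed (DE) when edgeR's quasi-likelihood test gave a Benjamini-Hochberg adjusted p below 0.05 and the log2 fold change was 1 or more in either direction. Fold changes are GL261 minus Mut3. Values against other tumors use the mean of CT2A and 005 in the same model, and therefore share libraries with the main comparison. In this reference 005 replicate 3 stood apart: it correlated at r = 0.838 and 0.795 with the other 005 libraries, 17.8% of its counts were mitochondrially encoded, and its neuron markers summed to 5438 CPM against 1062 and 403 CPM. The summed MHC class II level of 005 was also uneven, at 2299, 10940 and 2425 CPM. Without 005 replicate 3, an alternative chosen after seeing the data, every call against CT2A and 005 given below for a single gene was the same. Counts against CT2A and 005 that moved by over 1.5 times are stated, and for some lists so are counts of the main comparison.

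The engineered lesions were first read out at the RNA level. Nf1, the gene inactivated in the mouse that gave Mut3, was at 32.1, 21.3 and 25.1 CPM in GL261 tumors and at 21.6, 13.7 and 14.9 CPM in Mut3 tumors (log2 fold change 0.65, SE 0.35, adjusted p = 0.215), and the groups overlapped. Trp53 was at 47.2, 26.02 and 34.5 CPM in GL261 and 86.7, 51.6 and 43.01 CPM in Mut3, and the groups again overlapped (adjusted p = 0.119). A gene-level count does not show a point mutation, and it does not show a deletion that leaves part of the transcript, so these values do not check the genotype.

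Of 17481 genes tested, 3015 (17.2%) were DE, with 1948 (11.1%) higher in GL261 and 1067 (6.1%) higher in Mut3. The median log2 fold change over all genes tested was 0.04, a value that the TMM scaling holds near 0. The number of calls rested on single libraries. It was 1703 without GL261 replicate 2, 1877 without GL261 replicate 3, 1433 without Mut3 replicate 1, 1872 without Mut3 replicate 2 and 1968 without Mut3 replicate 3, and no DE gene was called in the opposite direction in any of these. Without GL261 replicate 1 the number higher in Mut3 was 524 and the share of calls higher in GL261 rose to 76.7%, from 64.6%. Among genes whose 3 libraries of a group all lay on 1 side of the other group, 4166 (23.8%) were above in GL261 and 3357 (19.2%) above in Mut3.

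**Figure D1:**
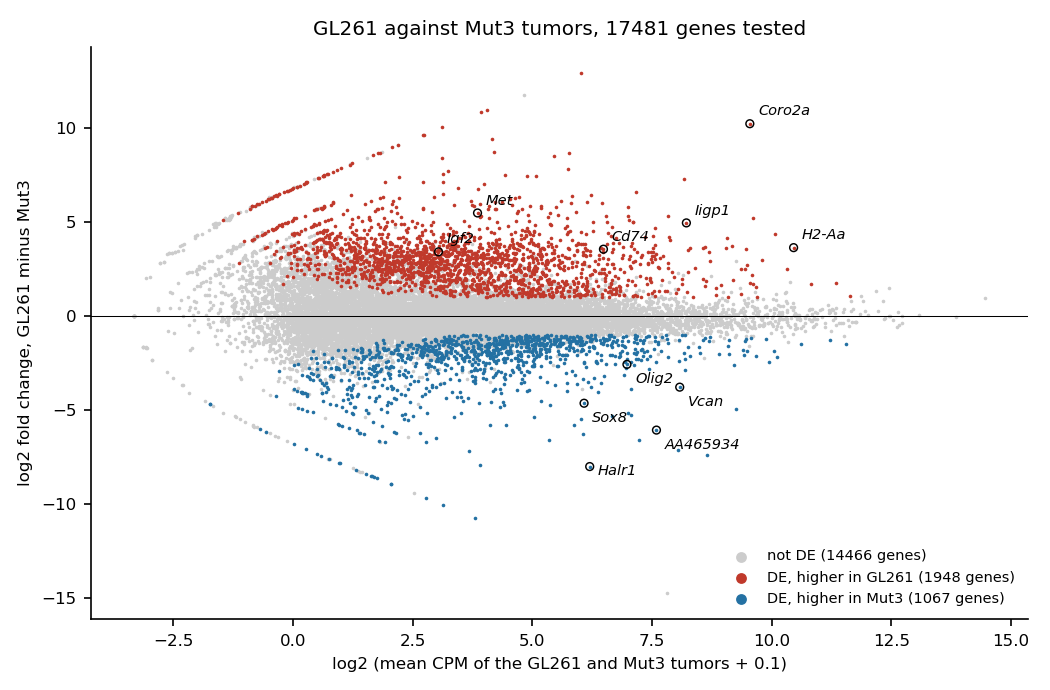
Log2 fold change of GL261 over Mut3 (vertical axis) against the log2 of the mean CPM over both tumors plus 0.1 (horizontal axis) of each of the 17481 genes tested, with DE genes colored by the group in which they were higher. The 1948 genes higher in GL261 outnumber the 1067 higher in Mut3, and Coro2a and AA465934, circled with 9 other genes, combine a large fold with a high level.

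DE genes were then set against naïve brain. Of the 1948 genes higher in GL261, 911 (46.8%) had a mean CPM in naïve brain above both tumors, 540 (27.7%) lay between the tumors and 497 (25.5%) lay below both. Of the 1067 genes higher in Mut3, only 23 (2.16%) were above both tumors in naïve brain, 691 (64.8%) lay between and 353 (33.1%) lay below both. Markers of brain cells were examined next. Of 16 neuron markers, 14 were DE and all of these were higher in GL261 (background 11.1%), with a median log2 fold change of 3.51. Their summed level was 1379, 2979 and 1684 CPM in GL261 and 168, 279 and 289 CPM in Mut3, against 8573, 6735 and 9011 CPM in naïve brain. Every GL261 library thus lay between Mut3 and naïve brain, and replicate 2, the library with the high mitochondrial share, was the highest of the GL261 libraries. Snap25, a component of the synaptic fusion machinery, was at 356, 904 and 477 CPM in GL261 and 26.6, 59.5 and 56.6 CPM in Mut3 (log2 fold change 3.60, SE 0.95, adjusted p = 0.0198). Grin2b, an NMDA receptor subunit, was at 33.4, 226 and 76.7 CPM in GL261 and 0.448, 0.503 and 2.902 CPM in Mut3 (log2 fold change 6.37, SE 1.30, adjusted p = 0.00539). Tubb3, neuronal beta-tubulin, was at 162, 108 and 93.8 CPM in GL261 and 16.1, 15.1 and 7.3 CPM in Mut3 (log2 fold change 3.24, SE 0.52, adjusted p = 0.00138), with its highest value in GL261 replicate 1 in place of replicate 2. The count of neuron markers was 7 without GL261 replicate 2, 3 without Mut3 replicate 1 and 7 without Mut3 replicate 2. Snap25 did not pass without GL261 replicate 2 or Mut3 replicates 1 or 2 (adjusted p = 0.0557 to 0.0761).

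Myelin and astrocyte genes showed a more mixed pattern. Of 11 oligodendrocyte markers, 6 were higher in GL261 (background 11.1%), none was higher in Mut3 and 5 did not pass. Of the 11, 3 had a negative log2 fold change, and 1 lay above GL261 in every Mut3 library. Mobp, a myelin protein, was at 180.5, 294 and 135 CPM in GL261 and 5.93, 14.1 and 14.5 CPM in Mut3 (log2 fold change 4.14, SE 0.91, adjusted p = 0.00843). Every GL261 library was above every Mut3 library. The oligodendrocyte count was 2 without Mut3 replicate 1 and 2 without Mut3 replicate 2. Of 11 astrocyte markers, 4 were higher in GL261 and 1 in Mut3. Gja1, the gap junction protein connexin-43, was at 131, 163 and 82.5 CPM in GL261 and 20.1, 18.2 and 21.02 CPM in Mut3 (log2 fold change 2.66, SE 0.40, adjusted p = 9.88e-04), and the water channel Aqp4 was at 106, 144 and 68.1 CPM in GL261 and 3.69, 18.6 and 10.99 CPM in Mut3 (log2 fold change 3.26, SE 0.68, adjusted p = 0.00634). Agt, angiotensinogen, ran the other way at 23.01, 14.2 and 4.003 CPM in GL261 and 142, 288 and 47.9 CPM in Mut3 (log2 fold change -3.55, SE 1.11, adjusted p = 0.0401). Gfap, the astrocytic filament, was at 37.7, 60.1 and 33 CPM in GL261 and 29.4, 86.8 and 15.7 CPM in Mut3 and overlapped (adjusted p = 0.993). The part of admixed brain tissue in the gene groups that follow was not tested, and naïve brain levels are given beside some of the genes that brain also expresses. Of 8 ependymal and choroid plexus markers, 1 was higher in GL261 (near the background of 11.1%) and none in Mut3 (background 6.1%). It was Rsph1, a protein of the ciliary radial spoke, at 1.66, 2.26 and 2.18 CPM in GL261 and 0, 0.126 and 0.528 CPM in Mut3 (adjusted p = 0.0488). Rsph1 did not pass without GL261 replicates 1, 2 or 3 or Mut3 replicates 1 or 2 (adjusted p = 0.066 to 0.131). Agt did not pass without GL261 replicates 1, 2 or 3 or Mut3 replicates 1 or 2 (adjusted p = 0.0676 to 0.121).

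**Figure D2:**
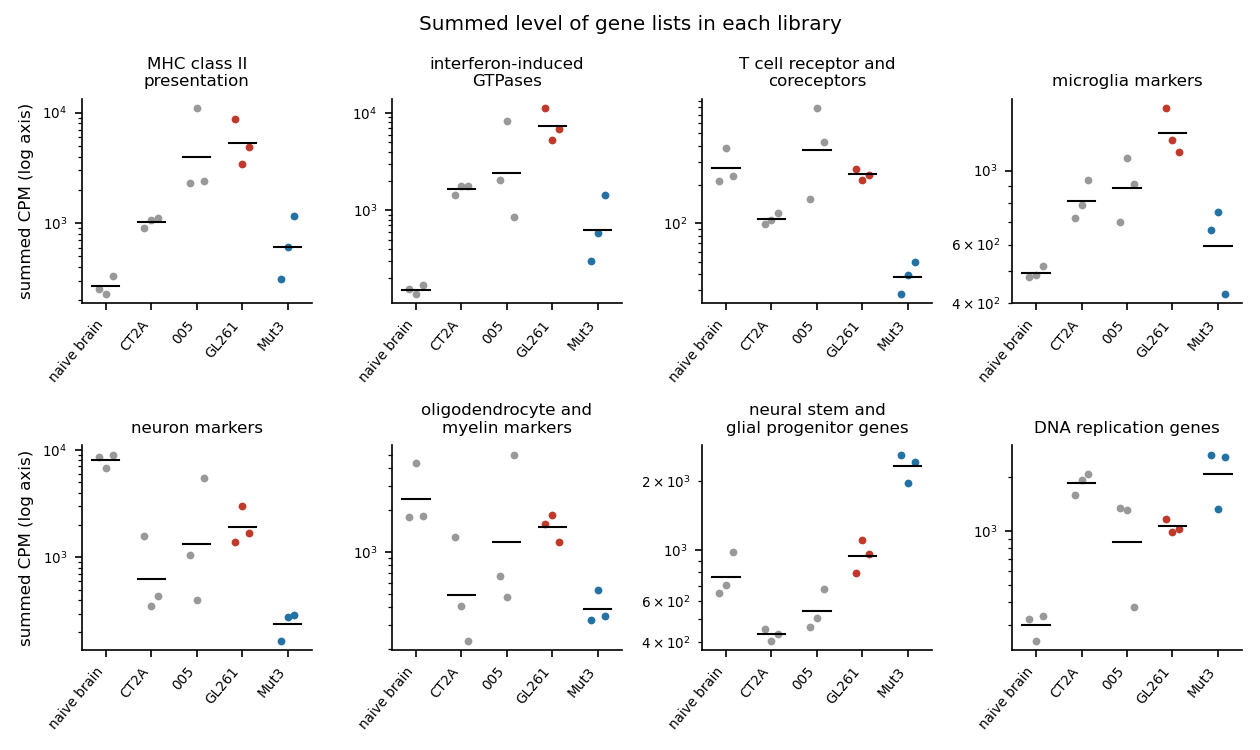
Summed CPM of the members of 8 gene lists (vertical log axes) in the 3 libraries of each of 5 groups, with 1 point per library, GL261 in red, Mut3 in blue, the other groups in grey and a bar at the geometric mean. Neuron marker sums in GL261 (1379 to 2979 CPM) lie between Mut3 (168 to 289 CPM) and naïve brain, whereas MHC class II sums in GL261 (3430 to 8740 CPM) lie above both.

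Antigen presentation genes were among the groups with the highest share of DE genes. Of 12 MHC class II genes, 11 were higher in GL261 and none in Mut3, with a median log2 fold change of 3.23 against 0.04 over all genes. Their summed level was 8740, 3430 and 4884 CPM in GL261 and 311, 605 and 1154 CPM in Mut3, against 253, 227 and 334 CPM in naïve brain. All 3 GL261 libraries were above all Mut3 libraries, and GL261 replicate 1 and Mut3 replicate 3 were the highest of their groups. H2-Aa, the class II alpha chain, was at 4285, 1308 and 2219 CPM in GL261 and 44.97, 158 and 422 CPM in Mut3 (log2 fold change 3.64, SE 0.80, adjusted p = 0.00823). H2-DMa, which loads peptides on class II, was at 595, 226 and 335 CPM in GL261 and 14.1, 31.2 and 79.7 CPM in Mut3 (log2 fold change 3.21, SE 0.65, adjusted p = 0.00509). The invariant chain Cd74 was at 266, 85.01 and 144 CPM in GL261 and 4.699, 9.69 and 27.4 CPM in Mut3 (log2 fold change 3.56, SE 0.74, adjusted p = 0.00625). In none of these genes did the groups overlap, and naïve brain was at 44.1, 21.4 and 4.88 CPM. Ciita, the class II transactivator, was at 10.4, 6.79 and 11.04 CPM in GL261 and 0.224, 0.881 and 1.495 CPM in Mut3 (log2 fold change 3.39, SE 0.99, adjusted p = 0.0342), and was listed at 0 in naïve brain. Ifi30, a lysosomal thiol reductase, was the member that did not pass, at 156, 68.4 and 101 CPM in GL261 and 126, 96.5 and 166 CPM in Mut3 (adjusted p = 0.761). Without Mut3 replicate 1 the class II count was 7. Ciita did not pass without GL261 replicates 1, 2 or 3 or Mut3 replicates 1, 2 or 3 (adjusted p = 0.0504 to 0.106).

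A smaller share of class I genes was called. Of 20 class I genes, 10 were higher in GL261 and none in Mut3, with a median log2 fold change of 1.68. The proteasome activator Psme2 was at 1868, 888 and 1037 CPM in GL261 and 238, 269 and 326 CPM in Mut3 (log2 fold change 2.19, SE 0.51, adjusted p = 0.0114), and Psmb10, an immunoproteasome subunit, at 198, 107 and 125 CPM in GL261 and 29.98, 29.9 and 57.3 CPM in Mut3 (log2 fold change 1.87, SE 0.39, adjusted p = 0.0062). Both were separated between the groups. The classical class I gene H2-K1 was at 859, 482 and 874 CPM in GL261 and 110.5, 262 and 342 CPM in Mut3 (log2 fold change 1.63, SE 0.54, adjusted p = 0.0496), a call close to the threshold that was made in 8 of 18 alternative settings. B2m, the class I light chain, was at 11930, 6389 and 6259 CPM in GL261 and 1039, 2763 and 4961 CPM in Mut3 (log2 fold change 1.49, SE 0.55, adjusted p = 0.0728) and did not pass, although every GL261 library was above every Mut3 library, and H2-D1 overlapped at 719, 428 and 552 CPM in GL261 and 131, 349 and 607 CPM in Mut3 (adjusted p = 0.397). H2 genes share long stretches of sequence, so the division of reads between them is uncertain. The class I count was 5 without GL261 replicate 3, 4 without Mut3 replicate 1, 6 without Mut3 replicate 2 and 16 without Mut3 replicate 3. H2-K1 did not pass without GL261 replicates 1, 2 or 3 or Mut3 replicates 1 or 2 (adjusted p = 0.0623 to 0.147).

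The interferon-induced GTPases had the highest share of DE genes of all lists. Of 16 tested, 15 were higher in GL261, none was higher in Mut3, and the median log2 fold change was 3.63. Their summed level was 11210, 5221 and 6836 CPM in GL261 and 302, 586 and 1425 CPM in Mut3. Igtp, an immunity-related GTPase, was at 1933, 869 and 1077 CPM in GL261 and 31.1, 73.6 and 224 CPM in Mut3 (log2 fold change 3.56, SE 0.76, adjusted p = 0.00683). Iigp1, of the same family, was at 843, 314 and 574 CPM in GL261 and 6.26, 14.7 and 34.5 CPM in Mut3 (log2 fold change 4.96, SE 0.79, adjusted p = 0.00136), and Gbp2, a guanylate-binding protein, was at 1540, 742 and 929 CPM in GL261 and 24.8, 61.3 and 154 CPM in Mut3 (log2 fold change 3.74, SE 0.83, adjusted p = 0.00854). GL261 replicate 1 was the highest of all libraries for these 3 genes, and Mut3 replicate 3 the highest of the Mut3 libraries. Irgm1, at 1783, 860.5 and 1079 CPM in GL261 and 102, 194 and 267 CPM in Mut3, had the smallest fold change of the list at 2.73 (SE 0.55). Tgtp2 did not pass (adjusted p = 0.0881), and it is nearly identical to its neighbor Tgtp1, so the split of reads between the pair is uncertain.

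Type I interferon-stimulated genes followed the same direction. Of 26 tested, 20 were higher in GL261 and none in Mut3, with a median log2 fold change of 3.10 and summed levels of 4214, 2390 and 2709 CPM in GL261 and 188, 475 and 534 CPM in Mut3. Ifit3, an antiviral RNA-binding protein, was at 647, 343 and 339 CPM in GL261 and 12.4, 39.9 and 27.9 CPM in Mut3 (log2 fold change 4.05, SE 0.53, adjusted p = 4.69e-04). Zbp1, a sensor of Z-form nucleic acids, was at 440.2, 232 and 265 CPM in GL261 and 8.05, 31.6 and 10.8 CPM in Mut3 (log2 fold change 4.22, SE 0.68, adjusted p = 0.00151), and Bst2, which tethers virus particles, at 292, 141 and 196 CPM in GL261 and 16.9, 27.8 and 29.2 CPM in Mut3 (log2 fold change 3.09, SE 0.48, adjusted p = 0.00123). None of these genes overlapped between the groups, and for Ifit3 and Zbp1 the highest Mut3 library was replicate 2 and not replicate 3, unlike the GTPases. Stat2, a transcription factor of this pathway, was at 44.97, 36.7 and 58.1 CPM in GL261 and 7.94, 7.801 and 5.37 CPM in Mut3 (log2 fold change 2.73, SE 0.50, adjusted p = 0.00295).

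The receptors, kinases and factors upstream of these genes were examined next. Of 15 genes tested for interferon receptors, JAKs, SOCS proteins and IRFs, 6 were higher in GL261 and none in Mut3. Irf1, a transcription factor that interferon-gamma induces, was at 249, 102 and 177 CPM in GL261 and 16.8, 26.3 and 34.6 CPM in Mut3 (log2 fold change 2.76, SE 0.61, adjusted p = 0.00813), and Irf8, a factor of myeloid cells, at 56.2, 40.2 and 51.3 CPM in GL261 and 2.69, 5.03 and 9.85 CPM in Mut3 (log2 fold change 3.06, SE 0.65, adjusted p = 0.00666). Both were separated between the groups. The receptor chain Ifngr1 was at 31.5, 36.4 and 29.5 CPM in GL261 and 18.2, 51.97 and 32.5 CPM in Mut3 and overlapped (adjusted p = 0.903), whereas Ifngr2, the other chain, was at 12.4, 14.2 and 15.2 CPM in GL261 and 5.59, 5.79 and 4.49 CPM in Mut3 (log2 fold change 1.40, SE 0.30, adjusted p = 0.00793).

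Calls of the interferon lists were also counted against the mean of CT2A and 005, without a test of the difference between lists. The summed GTPase level of 005 in this reference was uneven, at 2037, 8293 and 859 CPM. For type I interferon-stimulated genes, 5 of 26 were DE higher in GL261 than in the other tumors (background 3.09%) and 17 of 26 were DE lower in Mut3 (background 10.9%). For the GTPases, 5 of 16 were higher in GL261 and 7 were lower in Mut3. MHC class II had 4 of 12 higher in GL261 and 2 lower in Mut3. Ifit3 was part of both shifts, with log2 fold changes of 1.75 in GL261 (adjusted p = 0.0169) and -2.30 in Mut3 (adjusted p = 0.004). Without 005 replicate 3, 11 of 16 GTPases were lower in Mut3 (background 10.4%). In that setting the background higher in GL261 rose to 6.04%, and 6 of 26 type I genes, 6 of 16 GTPases and 4 of 12 class II genes were higher in GL261. Igtp differed from the other tumors in GL261 (2.58, adjusted p = 0.0159) and did not pass in Mut3 (-0.98, adjusted p = 0.286).

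Promoters of the genes above were searched for short motifs of the factors that act in these pathways, using RefSeq promoter sequence on GRCm38.p6 from 250 bases before the start to the start, on both strands. The interferon-stimulated response element core, GAAA followed by any 2 bases and GAAA again, bound by IRF9 and other IRFs, was present in 10 of 11 matched GTPase promoters and in 9 of 19 type I interferon-stimulated promoters. The same letters were found in 2.98% of all 32851 promoter entries and in 3.44% of 11916 matched genes tested. Among DE genes they were in 7.13% of 1374 promoters of genes higher in GL261 and in 3.74% of 669 of genes higher in Mut3. The gamma-activated site core TTCNNNGAA, bound by STAT dimers, was present in 6 of 11 GTPase promoters and 3 of 19 type I promoters, against 7.02% of all entries. The Y box CTGATTGG, bound by NF-Y, was present in 3 of 9 matched class II promoters and 6 of 17 class I promoters, against 3.83% of all entries and 6.35% of matched genes tested. The gamma-activated site core was in 8.15% of promoters of genes higher in GL261 and 6.43% of those higher in Mut3, against 7.23% of matched genes tested. For the Y box these shares were 5.02% and 6.28%. Class I and class II promoters held the response element in 3 of 17 and 1 of 9, and the gamma-activated site in 2 of 17 and 1 of 9. The Y box was in 0 of 11 GTPase and 0 of 19 type I promoters. A match is a description of the letters and not of a bound site. For each list the 2 DE members with the highest CPM in GL261 that held a required motif are printed. Both the gamma-activated site and the response element were required of GTPases, the response element of type I genes and the Y box of class II genes. The promoters below therefore show where the motifs sit in genes picked for holding them, and their presence is no result. Each is the 200 bases that end just before the start, 5′ to 3′ on the strand of the gene, with matches to the named motifs on either strand in capitals.

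Igtp, GAS core and ISRE core, chr11:58199356-58199555, plus strand: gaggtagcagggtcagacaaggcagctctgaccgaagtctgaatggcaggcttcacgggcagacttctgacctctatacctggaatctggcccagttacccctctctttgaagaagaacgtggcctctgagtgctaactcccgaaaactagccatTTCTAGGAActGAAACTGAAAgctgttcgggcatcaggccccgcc
Tgtp1, GAS core and ISRE core, chr11:48992247-48992446, minus strand: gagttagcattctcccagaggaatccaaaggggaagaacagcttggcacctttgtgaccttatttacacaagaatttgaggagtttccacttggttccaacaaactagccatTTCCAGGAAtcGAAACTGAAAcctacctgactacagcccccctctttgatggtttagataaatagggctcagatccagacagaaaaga
Ifit3, ISRE core, chr19:34583329-34583528, plus strand: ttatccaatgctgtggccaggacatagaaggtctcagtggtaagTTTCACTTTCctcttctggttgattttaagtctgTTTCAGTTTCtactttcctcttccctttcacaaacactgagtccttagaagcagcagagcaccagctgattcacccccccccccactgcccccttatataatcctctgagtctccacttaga
Bst2, GAS core and ISRE core, chr8:71537473-71537672, minus strand: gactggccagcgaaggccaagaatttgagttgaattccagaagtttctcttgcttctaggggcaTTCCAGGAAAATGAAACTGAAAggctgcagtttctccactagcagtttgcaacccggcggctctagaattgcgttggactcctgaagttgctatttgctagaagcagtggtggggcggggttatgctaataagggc
H2-Aa, Y box, chr17:34287824-34288023, minus strand: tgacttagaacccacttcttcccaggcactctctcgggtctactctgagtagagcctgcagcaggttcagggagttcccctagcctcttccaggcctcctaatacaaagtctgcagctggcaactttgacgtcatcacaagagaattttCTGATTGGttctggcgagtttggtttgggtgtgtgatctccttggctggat
H2-Eb1, Y box, chr17:34305667-34305866, plus strand: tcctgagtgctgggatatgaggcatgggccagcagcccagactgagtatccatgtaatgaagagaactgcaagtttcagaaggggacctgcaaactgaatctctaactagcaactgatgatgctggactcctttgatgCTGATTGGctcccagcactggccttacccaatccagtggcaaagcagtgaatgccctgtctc

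In Igtp and Tgtp1 the gamma-activated site and the response element stood side by side, and in Ifit3 there were 2 separate response elements. In Bst2 a gamma-activated site and 2 response elements overlapped and are printed as 1 run of capitals. For Igtp, Ifit3, Bst2, H2-Aa and H2-Eb1 the adjusted p of the expression difference was 0.00683, 4.69e-04, 0.00123, 0.00823 and 0.0123. Tgtp1 was at 443, 201 and 377 CPM in GL261 and 5.15, 34.4 and 42.5 CPM in Mut3 (log2 fold change 3.64, SE 1.16, adjusted p = 0.0424), with the uncertainty over Tgtp2 given above. H2-Eb1 did not pass without Mut3 replicate 1 (adjusted p = 0.0519). Tgtp1 did not pass without GL261 replicates 1, 2 or 3 or Mut3 replicates 1, 2 or 3 (adjusted p = 0.0656 to 0.126).

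Chemokines direct immune cells into tissue. Of 23 chemokine genes tested, 8 were higher in GL261 and 1 in Mut3. Cxcl10, a ligand of CXCR3 on activated T cells, was at 434, 149 and 248 CPM in GL261 and 12.3, 40.3 and 41.7 CPM in Mut3 (log2 fold change 3.14, SE 0.82, adjusted p = 0.0183). Ccl12, a monocyte attractant, was at 275, 188 and 182 CPM in GL261 and 6.38, 20.6 and 40.8 CPM in Mut3 (log2 fold change 3.25, SE 0.61, adjusted p = 0.00369), and Cxcl13, which attracts B cells, at 29.02, 15.7 and 19.9 CPM in GL261 and 0.336, 0.881 and 2.29 CPM in Mut3 (log2 fold change 4.14, SE 0.69, adjusted p = 0.00171). These 3 genes were separated between the groups. Cxcl9, the other main CXCR3 ligand, was at 167, 50.4 and 149 CPM in GL261 and 6.601, 8.68 and 42.6 CPM in Mut3 and did not pass (log2 fold change 2.66, SE 1.05, adjusted p = 0.0923), and Mut3 replicate 3 lay closest to GL261. The gene higher in Mut3 was Ccl25, a ligand of CCR9, at 5.39, 8.73 and 9.46 CPM in GL261 and 15.8, 18.2 and 29.1 CPM in Mut3 (log2 fold change -1.41, SE 0.43, adjusted p = 0.0349). Relative to CT2A and 005, 15 of 23 chemokines were lower in Mut3, and 0 were higher and 0 lower in GL261. Without 005 replicate 3 the GL261 counts were 2 higher and 2 lower (background 6.04% and 4.34%). In the main comparison the count higher in GL261 was 3 without Mut3 replicate 1 and 5 without Mut3 replicate 2. Without 005 replicate 3 it was 15, where 2511 of all 18300 genes tested were higher in GL261. Cxcl10 did not pass without Mut3 replicate 1 (adjusted p = 0.0699). Ccl25 did not pass without GL261 replicates 1, 2 or 3 or Mut3 replicates 1, 2 or 3 (adjusted p = 0.0581 to 0.188).

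Lymphocyte genes were low in Mut3. Of 17 T cell receptor and coreceptor genes tested, 11 were higher in GL261 and none in Mut3, with summed levels of 265, 219 and 238 CPM in GL261 and 28.1, 39.3 and 49.6 CPM in Mut3. Naïve brain was at 215, 383 and 235 CPM, within or above the GL261 range in 2 libraries, mostly from Thy1, which neurons also express and which was at 214 CPM there, at 36.1, 67.9 and 39.3 CPM in GL261 and at 13.1, 15.3 and 7.56 CPM in Mut3 (adjusted p = 0.055). Cd3g, a chain of the T cell receptor complex, was at 64.04, 23.8 and 38.3 CPM in GL261 and 2.35, 1.64 and 5.805 CPM in Mut3 (log2 fold change 3.66, SE 0.74, adjusted p = 0.00526). Cd8a was at 8.91, 12.8 and 15.04 CPM in GL261 and 0.671, 0.881 and 2.73 CPM in Mut3 (log2 fold change 3.06, SE 0.72, adjusted p = 0.0114), whereas Cd4 was at 2.49, 6.79 and 7.52 CPM in GL261 and 1.23, 1.51 and 1.495 CPM in Mut3 and did not pass (adjusted p = 0.123). Naïve brain held more Cd4 than either tumor, at 10.7 CPM. Cd5, a T cell surface receptor, had no count in the Mut3 libraries and was at 2.28, 0.162 and 1.21 CPM in GL261, at least 11.5-fold higher when set against a floor of 3 counts over the 3 Mut3 libraries (adjusted p = 0.0301). Without GL261 replicate 1 this bound was 6.49-fold. The T cell count was 6 without GL261 replicate 3, 3 without Mut3 replicate 1 and 4 without Mut3 replicate 2. Cd5 did not pass without GL261 replicates 1 or 3 or Mut3 replicates 1, 2 or 3 (adjusted p = 0.0669 to 0.079).

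Cytotoxic genes were also higher in GL261. Of 13 tested, 7 were higher in GL261 and none in Mut3, and the median log2 fold change was 3.11. Gzma, a granzyme of T and NK cells, was at 202, 52.2 and 98.8 CPM in GL261 and 1.68, 1.89 and 3.78 CPM in Mut3 (log2 fold change 5.56, SE 0.94, adjusted p = 0.00199), and Gzmb at 132, 31.2 and 70 CPM in GL261 and 2.13, 2.14 and 1.76 CPM in Mut3 (log2 fold change 5.26, SE 0.75, adjusted p = 7.79e-04). The NK receptor Klrd1 was at 9.53, 10.7 and 11.2 CPM in GL261 and 0.448, 0.503 and 1.67 CPM in Mut3 (log2 fold change 3.52, SE 0.71, adjusted p = 0.00507). All 3 genes were separated, and GL261 replicate 1 was the highest library for both granzymes. Against CT2A and 005, Gzmb was lower in Mut3 (-5.21, adjusted p = 3.74e-04) and did not pass in GL261 (0.05, adjusted p = 0.978). The cytotoxic count was 4 without GL261 replicate 3, 4 without Mut3 replicate 1 and 4 without Mut3 replicate 2.

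Of 17 checkpoint genes, which hold back T cells and phagocytes, 9 were higher in GL261, none was higher in Mut3 and 8 did not pass. Of the latter, 3 had a negative log2 fold change, namely Cd276 (-0.07) and the ectonucleotidases Entpd1 (-1.26) and Nt5e (-1.46), and Entpd1 and Nt5e were above GL261 in every Mut3 library. Cd274, which encodes PD-L1, was at 72.8, 28.6 and 46.8 CPM in GL261 and 2.46, 2.14 and 6.07 CPM in Mut3 (log2 fold change 3.77, SE 0.74, adjusted p = 0.00447). Its receptor Pdcd1 was at 2.69, 2.59 and 2.06 CPM in GL261 and 0, 0.503 and 0.968 CPM in Mut3 and did not pass (log2 fold change 2.24, SE 0.94, adjusted p = 0.108), at levels close to the per-library floor of 3 counts (0.265 to 0.558 CPM). Lgals9, a ligand of TIM-3, was at 244, 144 and 153 CPM in GL261 and 14.3, 50.2 and 25.7 CPM in Mut3 (log2 fold change 2.58, SE 0.51, adjusted p = 0.00448), and TIM-3 itself, Havcr2, at 12.6, 9.86 and 14.6 CPM in GL261 and 2.01, 1.89 and 1.94 CPM in Mut3 (log2 fold change 2.66, SE 0.52, adjusted p = 0.00436). The phagocyte receptor Sirpa was at 50.2, 92.6 and 82.4 CPM in GL261 and 12.5, 14.97 and 19.9 CPM in Mut3 (log2 fold change 2.25, SE 0.40, adjusted p = 0.00269) but reached 200.1 CPM in naïve brain. Against CT2A and 005, 14 of 17 checkpoint genes were lower in Mut3, and 0 were higher in GL261.

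Myeloid genes showed the same direction with a few exceptions. Of 15 microglia markers, 11 were higher in GL261 and 1 in Mut3. The fractalkine receptor Cx3cr1 was at 34.8, 30.1 and 21.5 CPM in GL261 and 2.91, 4.15 and 5.01 CPM in Mut3 (log2 fold change 2.83, SE 0.38, adjusted p = 4.81e-04), with naïve brain at 20.9 CPM. P2ry12, a purinergic receptor of resting microglia, was at 20.3, 33.8 and 13.2 CPM in GL261 and 1.902, 4.78 and 5.54 CPM in Mut3 (log2 fold change 2.45, SE 0.58, adjusted p = 0.0118), below the 49.9 CPM of naïve brain. Both genes were separated between the tumors. The exception was Sall1, a transcription factor of microglia and also of neural progenitors, at 4.77, 3.23 and 6.92 CPM in GL261 and 14.3, 8.05 and 15.3 CPM in Mut3 (log2 fold change -1.33, SE 0.41, adjusted p = 0.0385). Sall1 did not pass without GL261 replicates 1 or 2 or Mut3 replicates 1 or 3 (adjusted p = 0.125 to 0.156).

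Of 19 monocyte and macrophage markers, 10 were higher in GL261 and 1 in Mut3. Their summed level overlapped between the groups, at 3063, 1484 and 1652 CPM in GL261 and 974, 1481 and 1834 CPM in Mut3. Of the 19, 3 had a negative log2 fold change, and 2 lay above GL261 in every Mut3 library. Cd14, the lipopolysaccharide coreceptor, was at 401, 205 and 189.9 CPM in GL261 and 6.38, 11.9 and 6.596 CPM in Mut3 (log2 fold change 4.997, SE 0.53, adjusted p = 9.19e-05). Chil3, a chitinase-like protein of alternatively activated macrophages, was at 64.2, 48 and 36.9 CPM in GL261 and 1.23, 1.26 and 0.792 CPM in Mut3 (log2 fold change 5.50, SE 1.002, adjusted p = 0.00296), and Itgam, the integrin CD11b, at 18.9, 21.3 and 26.4 CPM in GL261 and 1.79, 4.53 and 3.08 CPM in Mut3 (log2 fold change 2.83, SE 0.36, adjusted p = 4.01e-04). None of these overlapped. Arg1, arginase, was at 115, 13.4 and 56.05 CPM in GL261 and 11.3, 18.6 and 9.76 CPM in Mut3, so GL261 replicate 2 lay within the Mut3 range although the gene passed (log2 fold change 2.22, SE 0.71, adjusted p = 0.044). Vcan, a matrix proteoglycan listed here because monocytes make it but also made by glial progenitors, was at 14.1, 57.9 and 37.5 CPM in GL261 and 619, 409 and 485 CPM in Mut3 (log2 fold change -3.79, SE 0.70, adjusted p = 0.00313). Cd14 was the member whose level stood apart in both models, with log2 fold changes from CT2A and 005 of 2.31 in GL261 (adjusted p = 0.00172) and -2.69 in Mut3 (adjusted p = 0.00121). Arg1 did not pass without GL261 replicates 1 or 3 or Mut3 replicates 1, 2 or 3 (adjusted p = 0.0718 to 0.169). The count higher in Mut3 was 2 without Mut3 replicate 1.

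Complement genes were called in 14 of 15 cases, all higher in GL261. C1qb, a chain of the initiating C1q complex, was at 208, 172 and 156 CPM in GL261 and 28.5, 53.2 and 48.3 CPM in Mut3 (log2 fold change 2.04, SE 0.39, adjusted p = 0.0036), with naïve brain at 38.5 CPM. C2, a protease of the classical pathway, was at 126, 41.9 and 66.2 CPM in GL261 and 5.15, 5.91 and 5.37 CPM in Mut3 (log2 fold change 3.83, SE 0.48, adjusted p = 3.32e-04), and the inhibitor Serping1 at 144, 89.5 and 87.2 CPM in GL261 and 9.06, 21.3 and 13.1 CPM in Mut3 (log2 fold change 2.88, SE 0.51, adjusted p = 0.00251). All were separated between the groups. C2 was higher in GL261 than in CT2A and 005 (3.81, adjusted p = 2.02e-05) while Mut3 did not pass (-0.02, adjusted p = 0.982), and C1qb showed the other arrangement (0.39, adjusted p = 0.593 in GL261 and -1.65, adjusted p = 0.00544 in Mut3). Among dendritic cell markers 2 of 10 were higher in GL261 (background 11.1%) and none in Mut3 (background 6.1%). Among B cell and neutrophil markers 2 of 7 were higher in GL261 (background 11.1%), namely the B cell gene Cd79b and the neutrophil gene Csf3r. In Mut3 1 of the 7 was higher (background 6.1%). The dendritic count was 1 without GL261 replicate 2, 1 without GL261 replicate 3, 1 without Mut3 replicate 1 and 1 without Mut3 replicate 2, and the B cell and neutrophil count higher in GL261 was 1 without GL261 replicate 1, 1 without GL261 replicate 3, 0 without Mut3 replicate 1 and 1 without Mut3 replicate 3. The gene higher in Mut3 was Cxcr2, the neutrophil chemokine receptor, at 2.69, 5.33 and 9.098 CPM in GL261 and 25.2, 46.9 and 24.5 CPM in Mut3 (log2 fold change -2.47, SE 0.49, adjusted p = 0.00468). Neutrophil genes were thus called in both directions. Csf3r did not pass without GL261 replicate 2 or Mut3 replicates 1 or 2 (adjusted p = 0.0679 to 0.0821). Cd79b did not pass without GL261 replicates 1 or 3 or Mut3 replicates 1 or 3 (adjusted p = 0.071 to 0.107).

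**Figure D3:**
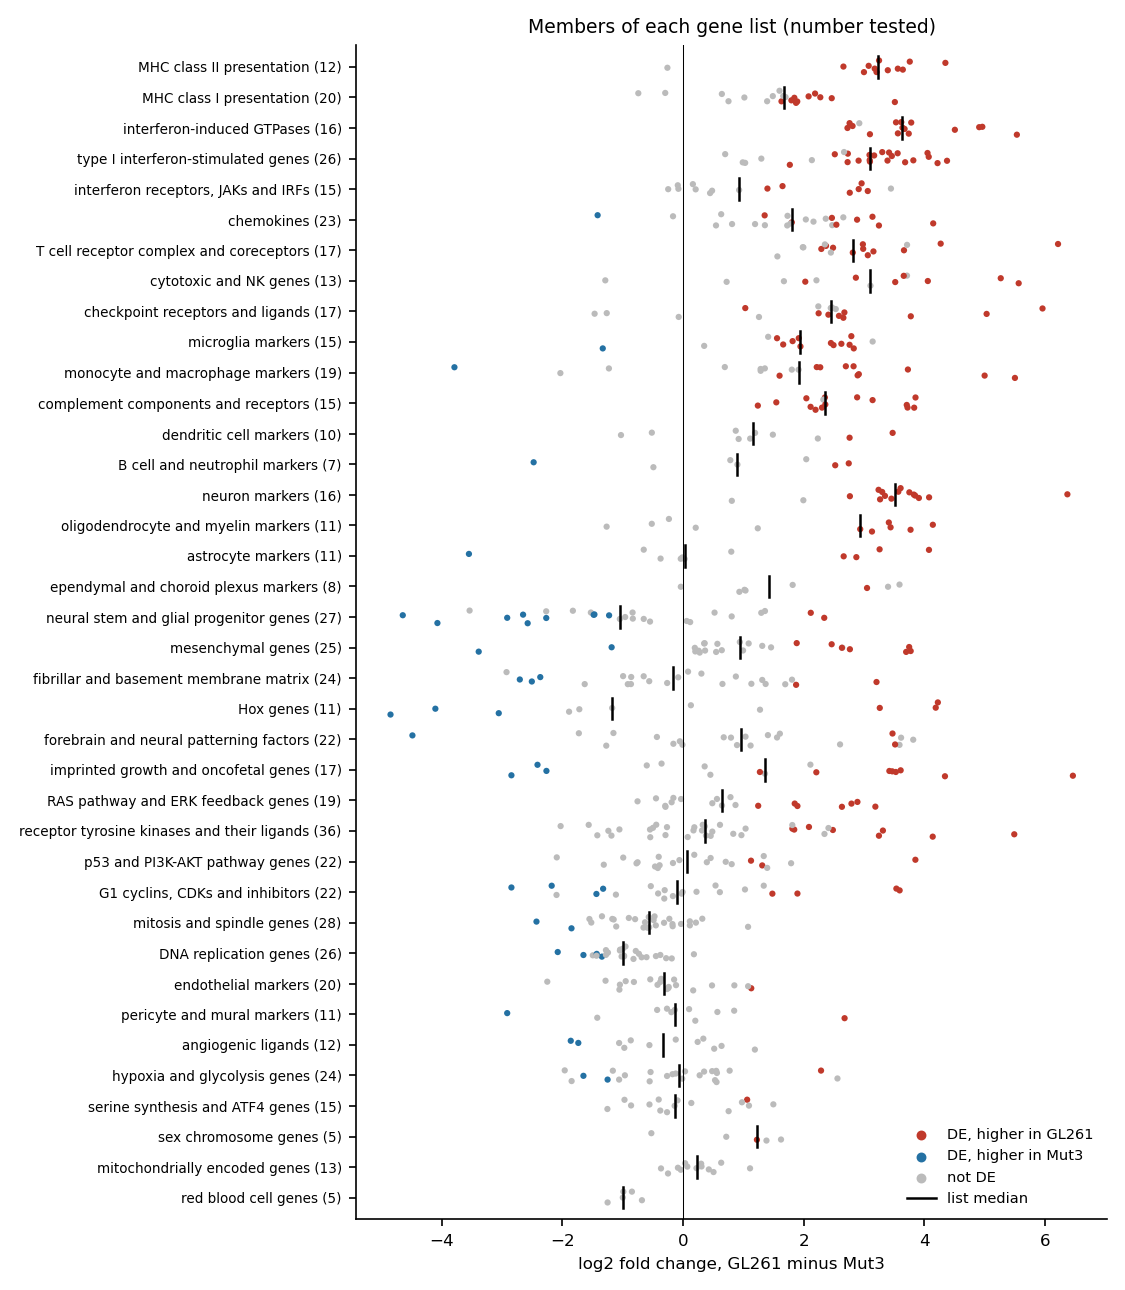
Log2 fold change of GL261 over Mut3 (horizontal axis) of every tested member of each gene list (rows), with DE genes colored by direction and the list median marked. Medians of the interferon-induced GTPases (3.63) and MHC class II (3.23) lie far to the right, and those of the neural stem and glial progenitor genes (−1.05) and DNA replication (−0.99) to the left.

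Glial progenitor genes formed the main group higher in Mut3. Of 27 tested, 9 were higher in Mut3 (background 6.1%) and 2 in GL261, and the median log2 fold change was -1.05. Olig2, a transcription factor of oligodendrocyte progenitors, was at 41.04, 35.4 and 32.3 CPM in GL261 and 206, 124 and 316 CPM in Mut3 (log2 fold change -2.57, SE 0.48, adjusted p = 0.00334). Sox8, a SoxE factor, was at 4.14, 6.303 and 5.09 CPM in GL261 and 158, 104 and 128 CPM in Mut3 (log2 fold change -4.64, SE 0.51, adjusted p = 1.19e-04), and Cspg4, the progenitor proteoglycan NG2, at 14.3, 7.76 and 17.6 CPM in GL261 and 109, 68.95 and 121 CPM in Mut3 (log2 fold change -2.91, SE 0.45, adjusted p = 0.00113). The groups were separated by a wide margin in all 3 genes, and naïve brain held 13.8, 13.1 and 7.82 CPM. Sox11, of immature neural cells, was at 7.25, 10.02 and 12.6 CPM in GL261 and 90.5, 35.1 and 62.9 CPM in Mut3 (log2 fold change -2.65, SE 0.54, adjusted p = 0.00565). Sox2 was at 51.4, 44.1 and 65.8 CPM in GL261 and 184, 105 and 88.04 CPM in Mut3 (log2 fold change -1.22, SE 0.41, adjusted p = 0.0498), with naïve brain at 21.8 CPM, and was called in 7 of 18 alternative settings. Nes overlapped at 10.4, 10.99 and 22.2 CPM in GL261 and 56.7, 51.5 and 17.9 CPM in Mut3 (adjusted p = 0.125), and the receptor Pdgfra overlapped at 17.2, 28.1 and 21.2 CPM in GL261 and 40.05, 18.9 and 38.3 CPM in Mut3 (adjusted p = 0.292). Sox2 did not pass without GL261 replicates 1, 2 or 3 or Mut3 replicates 1, 2 or 3 (adjusted p = 0.0656 to 0.278).

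The 2 progenitor genes higher in GL261 were Sox10 and Pax6. Sox10, another SoxE factor of the oligodendrocyte lineage, was at 59.3, 39.6 and 60.5 CPM in GL261 and 12.1, 10.3 and 9.06 CPM in Mut3 (log2 fold change 2.34, SE 0.59, adjusted p = 0.0165), with naïve brain at 8.37 CPM. Pax6, a factor of radial glia, was at 10.2, 10.3 and 14.7 CPM in GL261 and 3.13, 1.38 and 3.52 CPM in Mut3 (log2 fold change 2.12, SE 0.55, adjusted p = 0.0187), and naïve brain held 9.99 CPM. The SoxE factors Sox8 and Sox10 thus had opposite directions between these tumors. Relative to CT2A and 005, 15 of 27 progenitor genes were higher in Mut3 (background 7.14%) and 4 of 27 in GL261. Olig2 was higher than in CT2A and 005 in both models, by 2.33 in GL261 (adjusted p = 0.00222) and 4.90 in Mut3 (adjusted p = 4.66e-06) on the log2 scale. Sox10 likewise was higher in both, by 3.93 (adjusted p = 2.40e-04) and 1.59 (adjusted p = 0.0348). The progenitor count higher in Mut3 was 5 without Mut3 replicate 1. Sox10 did not pass without GL261 replicate 3 or Mut3 replicate 2 (adjusted p = 0.0551 and 0.0548). Pax6 did not pass without GL261 replicate 3 or Mut3 replicates 1 or 2 (adjusted p = 0.0518 to 0.0706).

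Mesenchymal genes were compared as the counterpart of the progenitor state. Of 25 tested, 7 were higher in GL261 and 2 in Mut3. Prrx1, a mesenchymal homeobox factor, was at 177, 125 and 129 CPM in GL261 and 18.01, 18.9 and 26.3 CPM in Mut3 (log2 fold change 2.77, SE 0.52, adjusted p = 0.00342), and Twist1, a driver of mesenchymal transition, at 4.14, 1.94 and 5.94 CPM in GL261 and 0.224, 0.252 and 0.352 CPM in Mut3 (log2 fold change 3.77, SE 0.64, adjusted p = 0.00195). The adhesion gene Cdh2, N-cadherin, was at 80, 75.3 and 96.3 CPM in GL261 and 7.16, 4.28 and 7.21 CPM in Mut3 (log2 fold change 3.75, SE 0.33, adjusted p = 1.69e-05), with naïve brain at 76.2 CPM. All 3 were separated. The transcription factors Zeb1 and Snai2 were higher in Mut3, at 21.1, 26.2 and 21.4 CPM in GL261 and 49, 65.3 and 41.6 CPM in Mut3 for Zeb1 (log2 fold change -1.182, SE 0.31, adjusted p = 0.0196), and at 0.622, 0 and 0.364 CPM in GL261 and 3.804, 4.15 and 2.46 CPM in Mut3 for Snai2 (log2 fold change -3.38, SE 0.81, adjusted p = 0.0131). Members of the list therefore moved in opposite directions. Against CT2A and 005, 14 of 25 mesenchymal genes were lower in Mut3 and 4 lower in GL261 (background 2.12%). Without 005 replicate 3, 7 were lower in GL261 (background 4.34%). The mesenchymal count higher in GL261 was 4 without GL261 replicate 3, 4 without Mut3 replicate 1 and 4 without Mut3 replicate 3, and the count higher in Mut3 was 1 without GL261 replicate 1, 1 without GL261 replicate 3, 1 without Mut3 replicate 1 and 1 without Mut3 replicate 2. Zeb1 did not pass without GL261 replicates 1 or 3 or Mut3 replicates 1 or 2 (adjusted p = 0.0561 to 0.0843).

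Of 24 matrix genes, 2 were higher in GL261 and 3 in Mut3, shares close to the background of 11.1% and 6.1%. Biglycan, Bgn, a small proteoglycan, was at 38.1, 12.4 and 33.5 CPM in GL261 and 134, 170.1 and 129 CPM in Mut3 (log2 fold change -2.36, SE 0.52, adjusted p = 0.00805), and the collagen VI chain Col6a1 at 1.04, 3.39 and 5.09 CPM in GL261 and 19.5, 23.1 and 12.9 CPM in Mut3 (log2 fold change -2.50, SE 0.46, adjusted p = 0.00296). Both were higher in every Mut3 library. Col12a1, a fibril-associated collagen, was at 15.8, 14.1 and 19.5 CPM in GL261 and 0.448, 0.503 and 4.22 CPM in Mut3 (log2 fold change 3.21, SE 0.74, adjusted p = 0.0106). The matrix count higher in GL261 was 1 without GL261 replicate 3, 1 without Mut3 replicate 2 and 1 without Mut3 replicate 3.

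Position-identity factors also differed, in both directions. Of 11 Hox genes tested, 3 were higher in GL261 (background 11.1%) and 3 in Mut3 (background 6.1%). Hoxa5 was at 6.01, 2.91 and 3.27 CPM in GL261 and 25.1, 46.3 and 29.2 CPM in Mut3 (log2 fold change -3.05, SE 0.61, adjusted p = 0.00509), whereas Hoxa10, of the same cluster, was at 14.9, 10.2 and 9.22 CPM in GL261 and 0.336, 2.77 and 0.528 CPM in Mut3 (log2 fold change 3.26, SE 0.89, adjusted p = 0.0225). In naïve brain these genes were at 0.453 and 0.6705 CPM. The Hox count higher in GL261 was 0 without Mut3 replicate 1 and 0 without Mut3 replicate 3. Among 22 forebrain and neural patterning factors, 2 were higher in GL261 and 1 in Mut3, below the background. The hindbrain factor En2 was at 0.207, 0 and 0.243 CPM in GL261 and 2.35, 3.397 and 5.54 CPM in Mut3, with only 2.90 counts over the GL261 libraries, so no fold is given (adjusted p = 0.0109). Hoxa10 did not pass without Mut3 replicates 1 or 3 (adjusted p = 0.0808 and 0.0739). The patterning count higher in GL261 was 5 without GL261 replicate 1.

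Imprinted growth and oncofetal genes were DE in 8 of 17 cases higher in GL261 and in 3 higher in Mut3. H19, an imprinted noncoding RNA, was at 990.1, 655 and 1267 CPM in GL261 and 132, 84.8 and 22.8 CPM in Mut3 (log2 fold change 3.61, SE 0.52, adjusted p = 8.04e-04), while naïve brain held 6.74 CPM. It was higher than in CT2A and 005 in both models, by 7.61 in GL261 (adjusted p = 2.24e-07) and 4.01 in Mut3 (adjusted p = 3.06e-05) on the log2 scale. Plagl1, an imprinted zinc finger factor, was at 103, 132 and 208 CPM in GL261 and 0.783, 0.629 and 3.43 CPM in Mut3 (log2 fold change 6.46, SE 0.72, adjusted p = 1.45e-04). The growth factor Igf2, the neighbor of H19, was at 9.95, 12.4 and 22.3 CPM in GL261 and 1.57, 0.881 and 1.67 CPM in Mut3 (log2 fold change 3.42, SE 0.78, adjusted p = 0.0103), in the range of naïve brain (17.5 CPM). Hmga2, an oncofetal chromatin protein, was at 28.2, 24.7 and 39.5 CPM in GL261 and 3.36, 3.02 and 1.67 CPM in Mut3 (log2 fold change 3.53, SE 0.69, adjusted p = 0.00464). In the other direction, the oncogene Myc was at 26.9, 20.4 and 28.8 CPM in GL261 and 158, 159.5 and 86.9 CPM in Mut3 (log2 fold change -2.41, SE 0.46, adjusted p = 0.0036), and Cdkn1c, an imprinted inhibitor of cyclin-dependent kinases, was at 4.56, 4.04 and 2.43 CPM in GL261 and 36.2, 23.8 and 18.7 CPM in Mut3 (log2 fold change -2.84, SE 0.54, adjusted p = 0.00384). The groups did not overlap for any of the 6 genes.

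**Figure D4:**
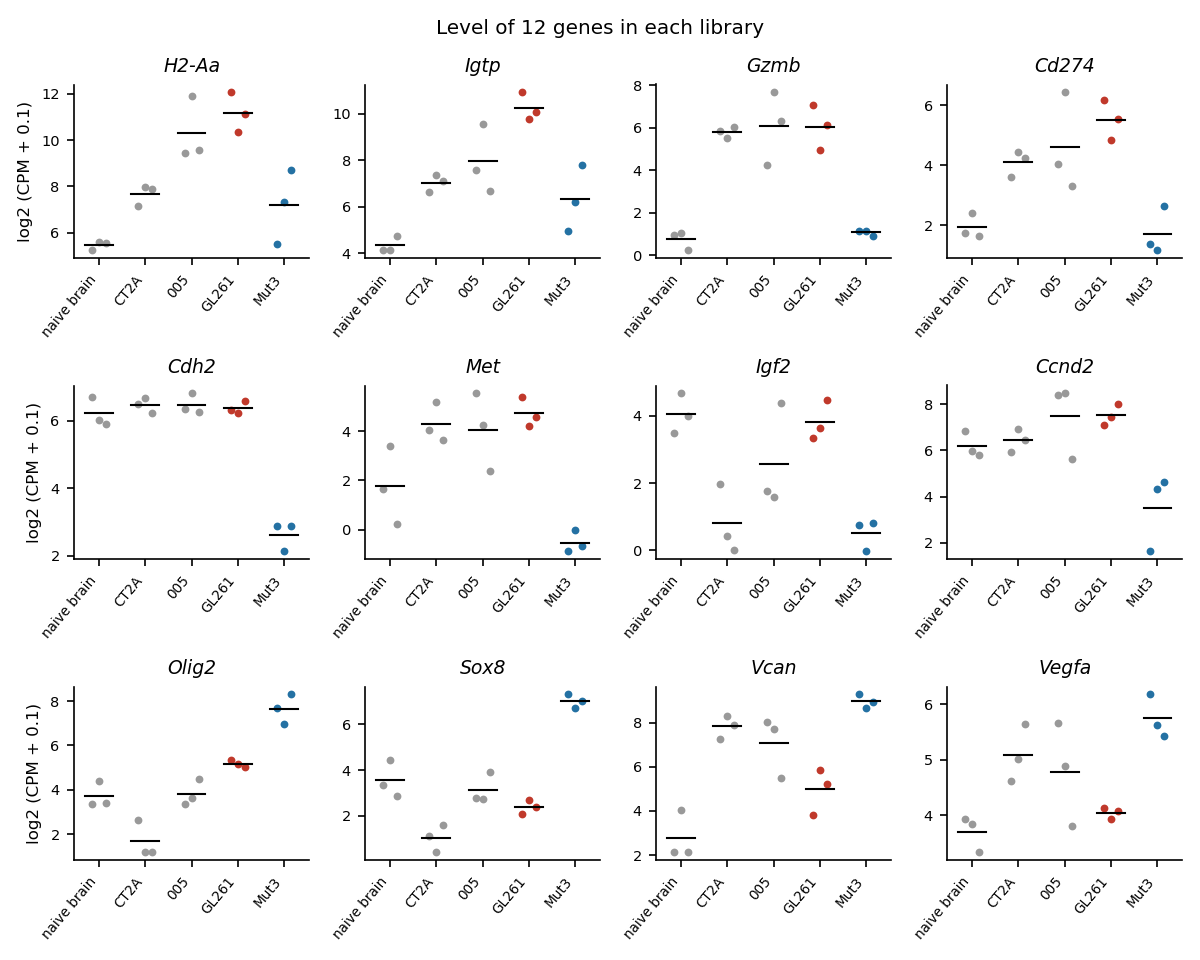
Log2 of CPM plus 0.1 (vertical axes) of 12 genes in the 3 libraries of each of 5 groups, with 1 point per library, GL261 in red, Mut3 in blue, the other groups in grey and a bar at the mean of the log2 values. GL261 libraries lie above Mut3 libraries for the 8 genes of the upper rows, from H2-Aa to Ccnd2, and below them for Olig2, Sox8, Vcan and Vegfa.

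NF1 was inactivated in the mouse that gave Mut3, so genes of the RAS pathway and its ERK feedback were examined. Of 19 tested, 7 were higher in GL261 and none in Mut3, with a median log2 fold change of 0.65. Dusp6, an ERK phosphatase that ERK itself induces, was at 145, 92.3 and 139 CPM in GL261 and 13.98, 11.4 and 15.7 CPM in Mut3 (log2 fold change 3.19, SE 0.43, adjusted p = 5.24e-04). The feedback inhibitors Spry2 and Phlda1 were at 73.6, 62.4 and 67.3 and 79.6, 63.4 and 117 CPM in GL261, and at 21.9, 17.2 and 17.1 and 14.4, 9.44 and 11.2 CPM in Mut3 (log2 fold change 1.85, SE 0.26, adjusted p = 6.92e-04 and log2 fold change 2.89, SE 0.45, adjusted p = 0.00122). All 3 were separated, and their levels in naïve brain were 32.3, 44.1 and 24.1 CPM. Spred1, an adaptor that works with NF1, was at 92.8, 113 and 125 CPM in GL261 and 53.2, 29.7 and 56.3 CPM in Mut3 (log2 fold change 1.25, SE 0.31, adjusted p = 0.0152). Against CT2A and 005, 11 of 19 were lower in Mut3, and in GL261 1 was higher and 4 were lower. The count higher in GL261 was 4 without GL261 replicate 3 and 4 without Mut3 replicate 2. Spred1 did not pass without GL261 replicate 3 or Mut3 replicate 2 (adjusted p = 0.0659 and 0.0629).

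Of 36 receptor tyrosine kinases and ligands, 8 were higher in GL261 and none in Mut3. Met, the receptor of hepatocyte growth factor, was at 42.3, 18.4 and 23.8 CPM in GL261 and 0.448, 0.881 and 0.528 CPM in Mut3 (log2 fold change 5.49, SE 0.94, adjusted p = 0.0021), and its ligand Hgf at 3.11, 7.92 and 3.03 CPM in GL261 and 0.336, 0.252 and 0.176 CPM in Mut3 (log2 fold change 4.14, SE 0.98, adjusted p = 0.0124). Axl, a receptor of the TAM family, was at 47.9, 44.8 and 58.96 CPM in GL261 and 8.05, 11.3 and 7.74 CPM in Mut3 (log2 fold change 2.48, SE 0.48, adjusted p = 0.00415), with naïve brain at 9.48 CPM. Hgf was not called by limma on log2 TPM, and the count higher in GL261 was 5 without Mut3 replicate 3. Met, Hgf and Axl were separated, and Met and Axl were lower in Mut3 than in CT2A and 005 (log2 fold changes -5.16 and -2.34, adjusted p = 0.00152 and 0.00284). Ntrk2, the BDNF receptor, was at 61.4, 123.2 and 80.3 CPM in GL261 and 4.25, 13.1 and 10.6 CPM in Mut3 (log2 fold change 3.25, SE 0.72, adjusted p = 0.00892) and reached 228 CPM in naïve brain. Egfr was at 1.86, 1.46 and 4.25 CPM in GL261 and 7.27, 10.4 and 13.7 CPM in Mut3, every Mut3 library being higher without passing the test (log2 fold change -2.03, SE 0.72, adjusted p = 0.0627).

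In the list of p53 and PI3K-AKT pathway genes, 3 of 22 genes were higher in GL261, a share near the background of 11.1%, and none in Mut3, with a median of 0.06. Mdm2, the p53 ubiquitin ligase and a p53 target, was at 60.7, 35.4 and 39.8 CPM in GL261 and 21.3, 18.6 and 14.8 CPM in Mut3 (log2 fold change 1.31, SE 0.30, adjusted p = 0.0104), and Phlda3, a p53 target that restrains AKT, at 3.73, 3.07 and 3.15 CPM in GL261 and 0.224, 0.252 and 0.176 CPM in Mut3 (log2 fold change 3.85, SE 0.58, adjusted p = 0.0011).

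The G1 regulators were divided, with 4 of 22 higher in GL261 and 4 higher in Mut3. Ccnd2, cyclin D2, was at 137, 175 and 257 CPM in GL261 and 3.02, 19.8 and 24.4 CPM in Mut3 (log2 fold change 3.59, SE 0.75, adjusted p = 0.00627), and Ccnd1, cyclin D1, at 341, 332 and 312 CPM in GL261 and 107, 43.8 and 114 CPM in Mut3 (log2 fold change 1.90, SE 0.60, adjusted p = 0.0401). The inhibitor Cdkn2b was at 11.6, 10.7 and 7.52 CPM in GL261 and 0.783, 0.378 and 1.32 CPM in Mut3 (log2 fold change 3.54, SE 0.77, adjusted p = 0.00795). Its neighbor Cdkn2a, the source of p16 and p19ARF, overlapped at 12.02, 4.85 and 11.3 CPM in GL261 and 5.59, 4.66 and 9.06 CPM in Mut3 (adjusted p = 0.548), whereas Mtap, next to this pair, was at 72.95, 77.7 and 66.96 CPM in GL261 and 250.2, 112 and 182 CPM in Mut3 (log2 fold change -1.32, SE 0.41, adjusted p = 0.0379). Rb1 was at 63.2, 39.6 and 39.3 CPM in GL261 and 15.2, 17.5 and 18.1 CPM in Mut3 (log2 fold change 1.48, SE 0.37, adjusted p = 0.016). The count higher in GL261 was 2 without Mut3 replicate 1, and that higher in Mut3 was 1 without GL261 replicate 1, 1 without GL261 replicate 2, 1 without GL261 replicate 3, 1 without Mut3 replicate 1, 2 without Mut3 replicate 2 and 1 without Mut3 replicate 3. Naïve brain held 13.7 CPM of Rb1. Cyclins D1 and D2 and Rb1 were higher in every GL261 library, and Mtap in every Mut3 library. Ccnd1 did not pass without GL261 replicates 1, 2 or 3 or Mut3 replicates 1, 2 or 3 (adjusted p = 0.0633 to 0.132). Mtap did not pass without GL261 replicates 1, 2 or 3 or Mut3 replicates 1 or 3 (adjusted p = 0.0882 to 0.205). Rb1 did not pass without Mut3 replicate 1 (adjusted p = 0.0525).

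Few proliferation genes were called in the main fit. Of 28 mitosis genes, 2 were higher in Mut3 and none in GL261, and of 26 DNA replication genes, 4 and none. The shares of 2 in 28 and 4 in 26 stood near or above the background of 6.1%, and the medians were -0.56 and -0.99. A negative log2 fold change was found for 23 of the mitosis genes and 25 of the replication genes. Without 005 replicate 3, 6 mitosis and 13 replication genes were higher in Mut3, where 1614 of all 18300 genes tested were. In that setting 1 mitosis gene and 0 replication genes were higher in GL261. Mki67, the proliferation antigen, was at 33.99, 37.7 and 54.7 CPM in GL261 and 273, 122.9 and 284 CPM in Mut3 (log2 fold change -2.43, SE 0.61, adjusted p = 0.0161). Rrm2, a subunit of ribonucleotide reductase, was at 37.7, 37.5 and 40.9 CPM in GL261 and 244, 97.01 and 149 CPM in Mut3 (log2 fold change -2.08, SE 0.53, adjusted p = 0.0164), and Pola1, the catalytic subunit of the primase-polymerase, at 44.4, 51.7 and 49.01 CPM in GL261 and 112, 151 and 128 CPM in Mut3 (log2 fold change -1.43, SE 0.28, adjusted p = 0.00474). Mut3 replicate 2 was the lowest of its group for Mki67 and Rrm2 and the highest for Pola1. Foxm1, a transcription factor of mitotic genes, overlapped at 12.2, 10.2 and 13.6 CPM in GL261 and 27.6, 10.2 and 16.4 CPM in Mut3 (adjusted p = 0.527). The replication count was 1 without GL261 replicate 1, 1 without GL261 replicate 2, 2 without GL261 replicate 3, 1 without Mut3 replicate 1 and 2 without Mut3 replicate 3, and the mitosis count was 0 without GL261 replicate 1, 0 without GL261 replicate 2, 1 without GL261 replicate 3, 0 without Mut3 replicate 1, 1 without Mut3 replicate 2 and 0 without Mut3 replicate 3. Mki67 did not pass without GL261 replicates 1 or 2 or Mut3 replicates 1 or 3 (adjusted p = 0.0598 to 0.0675). Rrm2 did not pass without GL261 replicates 1 or 2 or Mut3 replicate 1 (adjusted p = 0.0596 to 0.0926).

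Vessel genes mostly did not pass. Of 20 endothelial markers, 1 was higher in GL261 (background 11.1%) and none in Mut3 (background 6.1%). The 1 called was Pecam1, CD31, at 194, 142 and 164 CPM in GL261 and 75.1, 75.8 and 77.2 CPM in Mut3 (log2 fold change 1.13, SE 0.25, adjusted p = 0.00901), with naïve brain at 149.5 CPM. Most of the list ran the other way, with a median log2 fold change of -0.31, 15 negative values and 5 positive. All Mut3 libraries lay above all GL261 libraries for 7 markers (background 19.2%), and the reverse held for 2 (background 23.8%). Without 005 replicate 3, 2 markers were higher in Mut3 and 1 in GL261. Among 11 pericyte markers the calls were Mcam, at 112, 74.8 and 125 CPM in GL261 and 12.2, 16.5 and 19.96 CPM in Mut3 (log2 fold change 2.68, SE 0.46, adjusted p = 0.00226), and Cspg4, described above as a progenitor gene. Of 12 angiogenic ligands, 2 were higher in Mut3. Vegfa was at 17.4, 15.2 and 16.9 CPM in GL261 and 72.3, 49.3 and 43.01 CPM in Mut3 (log2 fold change -1.73, SE 0.42, adjusted p = 0.0137), and Angpt2, a destabilizing ligand of the TIE2 receptor, at 12.6, 14.6 and 13.9 CPM in GL261 and 22.7, 55.4 and 71.3 CPM in Mut3 (log2 fold change -1.86, SE 0.45, adjusted p = 0.0138). Every Mut3 library was above every GL261 library for both ligands, and the Vegfa receptor Kdr was at 2.07, 3.23 and 6.07 CPM in GL261 and 8.39, 9.31 and 6.24 CPM in Mut3 without passing (adjusted p = 0.171). Vegfa did not pass without GL261 replicates 1 or 2 or Mut3 replicate 1 (adjusted p = 0.0506 to 0.0791). Angpt2 did not pass without GL261 replicate 1 or Mut3 replicate 3 (adjusted p = 0.0578 and 0.0793). The count of angiogenic ligands was 0 without GL261 replicate 1, 1 without GL261 replicate 2, 1 without Mut3 replicate 1 and 1 without Mut3 replicate 3.

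Of 24 hypoxia and glycolysis genes, 1 was higher in GL261 and 2 in Mut3, below the background in each direction or near it. Ndrg1, a stress-induced gene that myelinating cells also express, was at 12.8, 21.7 and 19.4 CPM in GL261, 3.36, 4.91 and 2.81 CPM in Mut3 and 46.2 CPM in naïve brain (log2 fold change 2.29, SE 0.52, adjusted p = 0.00985). The glycolytic enzyme Eno1 was at 1726, 1256 and 1219 CPM in GL261 and 3582, 2616 and 3793 CPM in Mut3 (log2 fold change -1.25, SE 0.31, adjusted p = 0.0155). In the list of 15 serine synthesis and ATF4 genes only Atf4 itself was called, at 72.1, 68.8 and 96.9 CPM in GL261 and 40.8, 38.4 and 34.6 CPM in Mut3 (log2 fold change 1.06, SE 0.33, adjusted p = 0.037), in 6 of 18 alternative settings. Of 13 mitochondrially encoded protein genes and 5 red blood cell genes, 0 were DE in edgeR, and DESeq2 also called 0. At an unadjusted p below 0.05 these lists held 0 and 1 genes. When tRNA and rRNA genes were included, 16 of 37 mitochondrial genes tested were DE (background 11.1%), all higher in GL261. The median log2 fold change was 2.31 over these 37 and 0.63 over the 23 with a mean of at least 8 CPM in either group. Summed levels of the 13 protein genes overlapped, at 27040, 52940 and 26310 CPM in GL261 and 34000, 36160 and 38530 CPM in Mut3. Of 5 sex chromosome genes tested 1 was called, Tsix, which overlaps Xist on the opposite strand, and Xist itself overlapped between the groups at 6.84, 26.8 and 28.9 CPM in GL261 and 2.797, 9.06 and 12.1 CPM in Mut3 (adjusted p = 0.191). Eno1 did not pass without GL261 replicate 2 or Mut3 replicates 1 or 3 (adjusted p = 0.0656 to 0.0802). Atf4 did not pass without GL261 replicates 2 or 3 or Mut3 replicates 1, 2 or 3 (adjusted p = 0.0666 to 0.144). Tsix did not pass without GL261 replicates 2 or 3 or Mut3 replicates 1 or 3 (adjusted p = 0.079 to 0.174). The hypoxia and glycolysis count higher in Mut3 was 0 without GL261 replicate 2, 1 without GL261 replicate 3, 0 without Mut3 replicate 1 and 1 without Mut3 replicate 2. Without 005 replicate 3 this count was 5.

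Outside the lists, the genes with the largest fold changes and the smallest p-values were taken by rule. The rule for the largest folds asked for no overlap between the groups, so the separation of those genes was set by the choice. Coro2a, a coronin that binds actin, had both one of the largest folds and, with predicted genes left out, the smallest p among the genes higher in GL261. It was at 1579, 1257 and 1637 CPM in GL261 and 0.895, 0.126 and 2.46 CPM in Mut3 (log2 fold change 10.24, SE 0.72, adjusted p = 3.57e-06), with naïve brain at 5.67 CPM, CT2A at 829 CPM and 005 at 5.29 CPM on average. Alx1, a homeobox factor of cranial mesenchyme, was at 55.8, 33.9 and 38.3 CPM in GL261 and 0.448, 0.126 and 0.08795 CPM in Mut3 (log2 fold change 7.52, SE 0.66, adjusted p = 1.69e-05). Gtsf1, a germline factor of the piRNA pathway, was at 154, 88.6 and 82.01 CPM in GL261 and 0.336, 0.126 and 0.264 CPM in Mut3 (log2 fold change 8.69, SE 0.81, adjusted p = 2.92e-05). All GL261 libraries were far above all Mut3 libraries for these genes, an order of libraries that the rule required. Moxd1, a copper monooxygenase related to dopamine beta-hydroxylase, was at 298, 228 and 328 CPM in GL261 and 1.45, 2.39 and 4.75 CPM in Mut3 (log2 fold change 6.61, SE 0.53, adjusted p = 8.04e-06), and Psg29, a pregnancy-specific glycoprotein, at 91.4, 87.1 and 86.5 CPM in GL261 and 1.34, 1.64 and 1.76 CPM in Mut3 (log2 fold change 5.79, SE 0.47, adjusted p = 8.04e-06). Gpx7, a peroxidase of the endoplasmic reticulum, was at 78.5, 60.6 and 52.8 CPM in GL261 and 1.57, 2.01 and 2.99 CPM in Mut3 (log2 fold change 4.85, SE 0.38, adjusted p = 7.14e-06), and Pet2, an X-linked testis-expressed gene, at 85.8, 76.5 and 100.2 CPM in GL261 and 0.224, 0.378 and 0.08795 CPM in Mut3 (log2 fold change 8.55, SE 0.71, adjusted p = 1.03e-05).

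Several genes among the largest folds had no count in Mut3 or were uneven between GL261 libraries. Ott was at 75.4, 8.73 and 7.16 CPM in GL261, Gng10, a G protein gamma subunit, at 15.8, 17.5 and 6.31 CPM, and the carboxylesterase Ces1a at 17.4, 11.2 and 10.6 CPM. None had a count in Mut3, and against a floor of 3 counts over the group they were at least 288-fold, 124-fold and 123.2-fold higher in GL261. The bound of Ott was 75.03-fold without GL261 replicate 1, and DESeq2 did not call the gene (adjusted p = 0.0812). Gng10 was at 0, 34.9 and 33.8 CPM in naïve brain, so 1 library of that tissue also had no count. Dnah11, an axonemal dynein, was at 50.6, 56.1 and 0.121 CPM in GL261, so that replicate 3 was near the Mut3 level, and Rfx6 and Itprid1 were at 15.8, 17.8 and 17.9 and 25.1, 16.5 and 14.6 CPM. These 3 genes had fewer than 3 counts over the Mut3 libraries (adjusted p = 0.0362, 4.81e-04 and 0.00113), and no fold is given. H2-T3, a nonclassical class I gene, ranged over 129.7, 36.4 and 9.34 CPM in GL261 against 0.112, 0.378 and 0.4398 CPM in Mut3 (log2 fold change 7.46, SE 1.05, adjusted p = 6.92e-04), and Ifi206, an interferon-inducible PYHIN protein, was at 104, 33.1 and 63.7 CPM in GL261 and 0.336, 0.755 and 0.08795 CPM in Mut3 (log2 fold change 7.44, SE 0.82, adjusted p = 1.36e-04). Dnah11 did not pass without GL261 replicates 1 or 2 or Mut3 replicates 1, 2 or 3 (adjusted p = 0.0614 to 0.115).

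Among genes higher in Mut3, AA465934, a noncoding transcript, had the smallest p at 5.803, 3.39 and 7.64 CPM in GL261 and 373, 356 and 412 CPM in Mut3 (log2 fold change -6.07, SE 0.42, adjusted p = 3.57e-06). Fbp2, the muscle fructose bisphosphatase, was at 1.04, 0.808 and 0.607 CPM in GL261 and 124, 66.7 and 49.7 CPM in Mut3 (log2 fold change -6.62, SE 0.59, adjusted p = 1.84e-05), and Casq1, the calcium store protein of skeletal muscle, at 1.66, 1.29 and 1.09 CPM in GL261 and 31.8, 37.6 and 45.8 CPM in Mut3 (log2 fold change -4.83, SE 0.47, adjusted p = 3.97e-05). These genes were separated widely and were at 8.76, 0.317 and 1.08 CPM in naïve brain. Ptcra, the pre-T-cell receptor alpha chain, was at 4.56, 5.01 and 5.09 CPM in GL261 and 33.2, 70.2 and 46.1 CPM in Mut3 (log2 fold change -3.34, SE 0.32, adjusted p = 3.83e-05), opposite in direction to the T cell genes above. H2afy2, the histone variant macroH2A2, was at 2.07, 3.56 and 4.61 CPM in GL261 and 45.2, 59.6 and 61.6 CPM in Mut3 (log2 fold change -3.998, SE 0.41, adjusted p = 7.58e-05), and the mitochondrial GTPase Noa1 at 29.02, 35.1 and 26.4 CPM in GL261 and 147, 219 and 175 CPM in Mut3 (log2 fold change -2.58, SE 0.28, adjusted p = 1.14e-04). Halr1, a noncoding RNA next to the Hoxa cluster, was at 0.207, 0.485 and 0.849 CPM in GL261 and 35.9, 81.9 and 321 CPM in Mut3 (log2 fold change -8.01, SE 1.03, adjusted p = 3.95e-04), with a wide spread among the Mut3 libraries.

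The cytochrome P450 gene Cyp2c55 was at 17.2, 22.1 and 13.02 CPM in Mut3 and Dcpp1, a secreted glycoprotein, at 3.58, 8.43 and 12.2 CPM. Neither had a count in GL261, and they were at least 112-fold and 52.0-fold higher in Mut3 against the floor of 3 counts over the group. Ly6g6c, a GPI-anchored surface protein, was at 0.207, 0.162 and 0.121 CPM in GL261 and 4.36, 61.1 and 10.5 CPM in Mut3 (log2 fold change -7.18, SE 1.13, adjusted p = 0.0013), and Otos, otospiralin, at 1.24, 0.323 and 0.364 CPM in GL261 and 3.69, 25.7 and 72.5 CPM in Mut3 (log2 fold change -5.78, SE 1.12, adjusted p = 0.00432). Aldh1a7, an aldehyde dehydrogenase, was at 0.207, 0.162 and 0.243 CPM in GL261 and 8.17, 17.9 and 4.75 CPM in Mut3 (log2 fold change -5.53, SE 1.181, adjusted p = 0.00702), and Crocc2, related to the ciliary rootlet protein, at 0, 0.162 and 0.364 CPM in GL261 and 10.4, 12.3 and 6.16 CPM in Mut3 (log2 fold change -5.50, SE 0.83, adjusted p = 0.00144). Each was above its GL261 range in all Mut3 libraries, as the rule for the largest folds required. Cer1, an inhibitor of Nodal and BMP ligands, the muscle gene Tmod4 and the sperm protamine Prm1 were at 7.72, 6.79 and 22.3 CPM, 7.496, 13.1 and 5.37 CPM and 8.503, 12.96 and 3.52 CPM in Mut3 with fewer than 3 counts over the GL261 libraries (adjusted p = 0.00369, 0.0061 and 0.00862).

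The difference was also laid out by chromosome, over genes with a mean of at least 8 CPM. Among the autosomes and X, medians of the log2 fold change were above that of all genes on chromosome 10 (0.51) and on chromosome X (0.44), among others, and below it on chromosomes 3 (−0.29), 13 (−0.27) and 5 (−0.24). Over all genes tested, 120 genes on chromosome 10 were DE higher in GL261 and 18 higher in Mut3, and 92 and 26 on X. Chromosome 11, which holds Igtp and Irgm1, had 112 DE genes in each direction. These are descriptions of RNA levels without a test, and copy number was not measured.

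**Figure D5:**
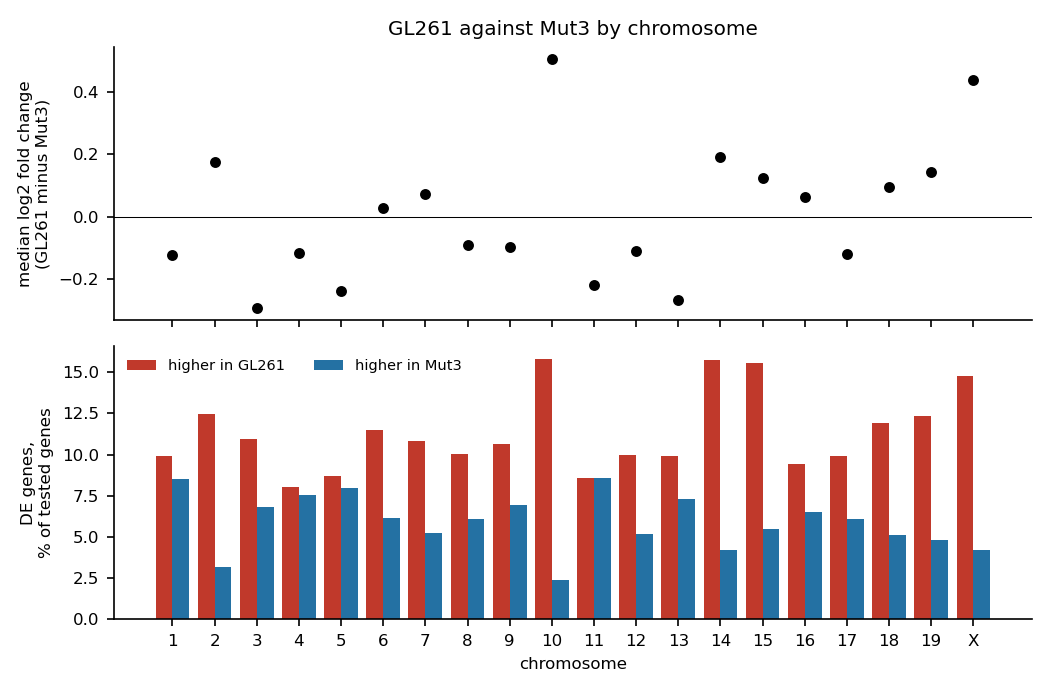
Median log2 fold change of GL261 over Mut3 on each chromosome over genes with a mean of at least 8 CPM (upper panel), and the percent of all tested genes of the chromosome that were DE in each direction (bars, lower panel). Among the autosomes and X, which are the chromosomes plotted, 10 (0.51) and X (0.44) have the highest medians and 3 (−0.29) the lowest.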

How the data were processed

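RNA of 15 libraries (GL261, Mut3, CT2A and 005 tumors and naïve brain, 3 mice each) was used. Reads were aligned by the authors with STAR v2.4.2a against GENCODE mouse sequence, followed by Picard for duplicates and RNA-SeQC for quality. The submitters' processing notes also name Salmon, DESeq2 1.18.1 and mm10 without a role, and the annotation release is not given in the sources used here. The authors deposited estimated counts, not scaled between samples, of which 48.4% were not whole. The authors also deposited TPM, scaled within each sample. Reads of near-identical genes were divided by estimation, and no strand information was given, so overlapping and antisense genes are uncertain.

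Estimated counts were rounded. Of 46679 gene identifiers, 46269 matched GENCODE M21, which supplied symbols and positions. Genes were filtered with filterByExpr by group (17481 kept, 14029 of the total at 0 throughout), scaled by TMM and fitted with 1 mean per group in edgeR 4.0.16 (R 4.3.3, quasi-likelihood test, Benjamini-Hochberg adjustment over all genes tested). CPM used the TMM-scaled library sizes. Floors of 3 counts cover counting error only. Alternatives used limma 3.58.1, DESeq2 1.42.0 and other filters, scalings and samples. In simulated data (17055 genes) the fit called 2% of genes changed by a log2 fold of 1, 40.8% at 2, 66% at 3 and 88% at 4, and 9 of 16856 unchanged genes. Only 200 genes were changed there, against 3015 called in the data, which makes the adjusted threshold stricter. Each simulated gene also had its mean over all groups and the spread typical of its level. These shares therefore do not give the power of the comparison reported here.

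The comparison and the 38 gene lists were chosen with earlier results of these data known, so counts over a list are descriptions. Named genes were list members (for lists with many calls, mainly those with the highest CPM), the 12 largest folds in each direction among genes of at least 8 CPM without overlap between the groups, and the 6 smallest p-values in each direction, without predicted genes, clones and mitochondrial genes. Some examples did not follow the order of CPM. Klrd1 and Itgam were named although Klrk1 (25.9 CPM in GL261) and Fcgr1 (37.3 CPM) were also DE and at a higher level. Some genes and lesions are not reported here. Families of related genes in the closing section were chosen after their values were seen. The labels give no batch, and replicate numbers do not pair mice: deviations of same-numbered libraries correlated at 0.02, 0.06 and −0.03. Promoters were read from a RefSeq table on GRCm38.p6, in which 11916 genes tested were matched.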

Additional observations from a re-analysis of the deposited data

How the results depend on the processing

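The main counts of 3015 DE genes, 1948 higher in GL261 and 1067 in Mut3 depended on the filter, the tool and single libraries. With at least 10 counts required in each of the 6 libraries they were 1733, 1026 and 707, on fewer genes tested. With limma on log2(TPM + 1) they were 1163, 649 and 514, and with a pseudocount of 0.1 the number higher in GL261 was 1202. A fold threshold of 2 on the log2 scale left 528 higher in Mut3. Leaving out 1 of the 6 libraries gave 1433 to 2249 genes, 880 to 1725 higher in GL261 and 524 to 760 higher in Mut3. Without 005 replicate 3, an alternative chosen after seeing the data, the counts were 4125, 2511 and 1614. Within 1.5 times the main counts were library totals in place of TMM, RLE size factors, mitochondrial genes left out, no filter, only the 6 libraries, no 005 libraries, DESeq2 (4014, 2491 and 1523) and no fold threshold. In each of these settings, 0 main calls were made in the opposite direction. The median of all genes moved by 0.14 without GL261 replicate 1 and by 0.11 without Mut3 replicate 3, on the log2 scale. The cause was not tested. With the replicate number as a block 2487 genes were called (1619 and 868), although the numbers do not pair the mice and same-numbered libraries did not correlate best with each other throughout. Over 279 named DE genes, 4325 of 4923 alternative values kept the call, 598 lost it and 0 changed direction.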

Other observations

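Several families of related genes, chosen after their values were seen, were counted without a test of the family. Of 13 PYHIN genes tested, which encode interferon-inducible DNA sensors and their relatives, 10 were DE higher in GL261 (background 11.1%) and none in Mut3, with a median log2 fold change of 3.92. Ifi211 was at 414, 149.8 and 188 CPM in GL261 and 3.13, 9.44 and 9.23 CPM in Mut3 (log2 fold change 5.10, SE 0.86, adjusted p = 0.00195). Ifi213 was the member with the highest level in Mut3 at 258, 93.9 and 119 CPM in GL261 and 36.8, 40.9 and 111 CPM in Mut3, so that Mut3 replicate 3 lay within the GL261 range (adjusted p = 0.111). PYHIN genes lie in 1 cluster and are similar in sequence, so the division of reads among them is uncertain. Of 8 apolipoprotein L genes, 5 were higher in GL261, including Apol10b at 86.2, 29.4 and 49.4 CPM in GL261 and 1.34, 0.755 and 4.92 CPM in Mut3 (log2 fold change 4.51, SE 0.91, adjusted p = 0.00508). Of 5 Fc gamma receptor genes, 4 were higher in GL261. The inhibitory receptor Fcgr2b was at 219, 74.7 and 109 CPM in GL261 and 8.39, 20.8 and 12.9 CPM in Mut3 (log2 fold change 3.26, SE 0.54, adjusted p = 0.00178), and the remaining gene, the neonatal receptor Fcgrt, overlapped at 14.3, 13.7 and 11.9 CPM in GL261 and 13.2, 24.5 and 18.2 CPM in Mut3 (adjusted p = 0.333).

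Of 10 Toll-like receptors tested, 3 were higher in GL261 (background 11.1%) and 1 in Mut3 (background 6.1%). Tlr3, which senses double-stranded RNA, was at 31.1, 24.7 and 21.96 CPM in GL261 and 4.92, 5.29 and 5.19 CPM in Mut3 (log2 fold change 2.33, SE 0.34, adjusted p = 7.97e-04), and all libraries were separated. Tlr5, the flagellin receptor, was at 0, 0.162 and 0.121 CPM in GL261 and 1.34, 1.89 and 2.81 CPM in Mut3, with few counts in GL261 (adjusted p = 0.0183). Of 12 GABA-A receptor subunits, 9 were higher in GL261, as was the case for the neuron markers, and of 13 ionotropic glutamate receptors 5. Protocadherins had 3 of 29 higher in each direction, near the background of 11.1% for GL261 and above that of 6.1% for Mut3. Their median was -1.25. Higher in GL261 were 2 of 8 granzymes, 5 of 8 killer cell lectin-like receptors, 2 of 6 Schlafen, 4 of 7 oligoadenylate synthetase and 6 of 9 membrane-spanning 4A genes. Of 20 replication-dependent histones, 1 was higher in GL261 and 3 in Mut3, and of 9 minichromosome maintenance genes 0 and 1. The background shares are those given above, and counts this small are not read as results on these families.

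Genes on unplaced scaffolds of the assembly stood out among the largest folds. Of 17 tested, 7 were DE higher in GL261 (background 11.1%) and 1 in Mut3, near its background of 6.1%. AC125149.1 was at 88.1, 31.03 and 55.7 CPM in GL261 and 1.01, 1.51 and 1.67 CPM in Mut3 (log2 fold change 5.36, SE 0.91, adjusted p = 0.00207), and AC133103.1 was at 27.6, 10.02 and 14.1 CPM in GL261 and had no count in Mut3 or naïve brain (adjusted p = 0.00249). AC149090.1, on another scaffold, was at 38.8, 31.5 and 42.7 CPM in GL261 and 116, 98.5 and 134 CPM in Mut3 (log2 fold change -1.63, SE 0.31, adjusted p = 0.00393). Such scaffolds can hold near-identical copies of placed genes, so these values are uncertain.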
